A study of Drosophila melanogaster with 3 samples.

Results

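The genes described are those for translation initiation factors (eIF) and elongation factors (eEF) of Drosophila melanogaster, taken as every protein-coding gene of the Ensembl BDGP6 annotation whose symbol starts with eIF or eEF followed by a digit. This gave 51 genes of 13945 on the arms 2L, 2R, 3L, 3R, 4 and X, 44 of them initiation factor genes and 7 elongation factor genes, with 76 transcription start sites (TSSs) in all. Each gene was scored by the binding of CG3281, a C2H2 zinc finger protein, in ChIP-seq with an antibody against GFP. The chromatin came from whole embryos of both sexes, 0 to 24 h old, of 1 transgenic line that stably carries CG3281 with GFP at its C-terminus. All 3 samples belong to this group and are biological replicates by their labels, and they were set against a control that is not analysed here. Since whole embryos were used, a peak in a few cells and a weak peak in all cells cannot be told apart. The deposited lists give a signal value per region but no read counts, so depth is unknown.

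Initiation factors bring the initiator tRNA, the small ribosomal subunit and the capped mRNA together at a start codon. Elongation factors then deliver each aminoacyl-tRNA and move the ribosome along the mRNA. Nearly all growing cells need both, and early fly embryos rely heavily on translational control of maternal mRNAs, in which cap-binding proteins of the eIF4E family take part. Several factors have a second gene copy in flies, and some of these copies are known for roles in the male germline.

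Of the 51 genes, 16 (31.4%) had a summit of the authors' reproducible peak set, called at an irreproducible discovery rate, no more than 500 bp from a TSS, and such genes are termed bound. Among all protein-coding genes the share was 24.8%, so the members' share lay near the background. The 16 were eEF1alpha1, eEF1gamma, eEF2, eEF5, eIF1, eIF2A, eIF2beta, eIF2D, eIF3a, eIF3c, eIF3h, eIF3m, eIF4E1, eIF4EHP, eIF5B and eIF6. Elongation factor genes were bound in 4 of 7 cases (57.1%) and initiation factor genes in 12 of 44 (27.3%). The pooled signal of the bound members' strongest peaks had a median of 580.2, against 410.6 over all bound genes, and 13 of the 16 lay above the latter. No test of these differences was made, and the design has no second condition. The share of 24.8% is also the background for the counts by factor given below, each of which rests on few genes.

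Between replicates the signal was compared after division by the median of each replicate's list, which was 33.9, 38.7 and 43.7 in replicates 1, 2 and 3. On this scale eIF4EHP, eIF6 and eEF1gamma stood above the other bound members in every replicate, and their own replicate values did not overlap. All 16 bound members had a region over the pooled summit in each replicate's list, and 14 of them ranked among the strongest 6565 regions of every list, as many as the reproducible set has peaks. The exceptions were eEF1alpha1, at rank 7709 in replicate 2, and eIF2beta, at rank 17732 in replicate 1. The coefficient of variation over replicates had a median of 16.2% and ran from 2.72% at eEF2 to 59.1% at eIF2beta.

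**Figure D1:**
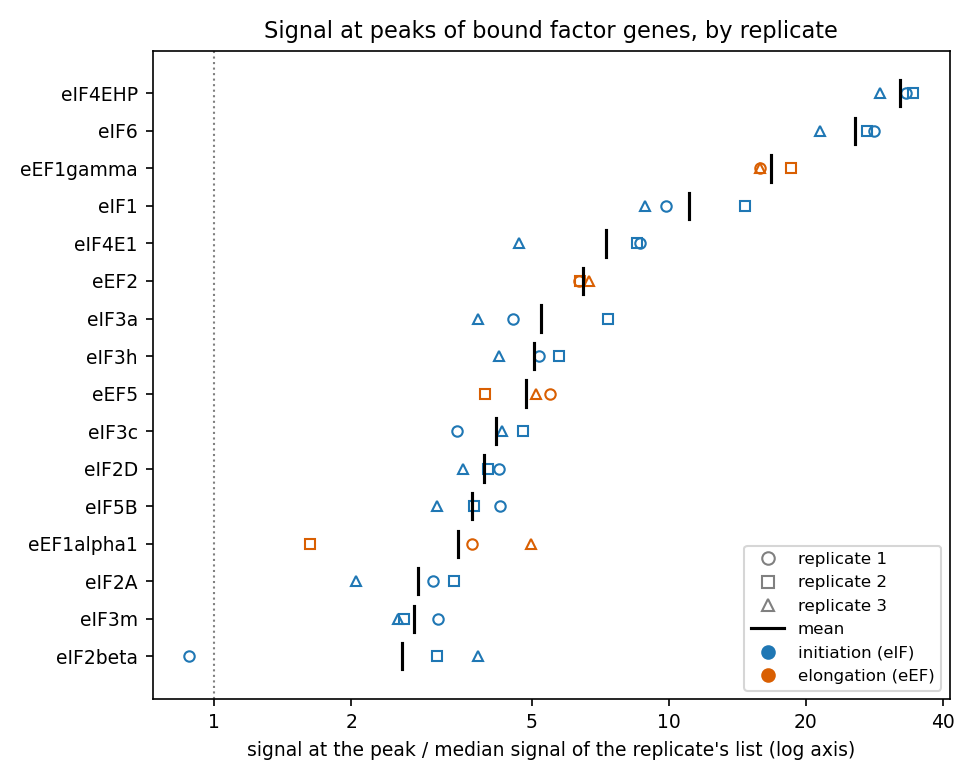
Signal of the strongest region over the pooled summit divided by the median signal of the same replicate's list (horizontal log axis), for the 16 bound genes. Open symbols are the 3 replicates, black bars their mean, and the dotted line the list median; eIF4EHP lies between 29.1 and 34.5, and the replicate 1 value of eIF2beta lies below 1.

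The eEF1 complex delivers aminoacyl-tRNA: eEF1alpha carries it to the ribosome, and eEF1beta, eEF1delta and eEF1gamma belong to the exchange factor that recharges eEF1alpha with GTP. Of its 5 genes only eEF1alpha1 and eEF1gamma were bound. At eEF1gamma (FBgn0029176) the peak lay on 3R from 29219902 to 29220351, with a pooled signal of 1975 and rank 169 of the 6565 reproducible peaks. Its replicate signals were 539.9, 721.2 and 697.7, or 15.9, 18.6 and 15.9 times the list medians (mean 16.8 ± 1.56, SD, n = 3). The summit was 5 bp upstream of the TSS, and the 3 replicates lay within a narrow range.

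At eEF2 (FBgn0000559), the gene for the factor that translocates the ribosome, the peak lay on 2L from 21681942 to 21682310. The pooled signal was 745.7 and the summit distance -8 bp, where negative distances are upstream. Counted from the most upstream TSS, the summit lay 40 bp into the gene, in an annotated exon. The eEF2 values of 6.35, 6.39 and 6.67 times the list median (mean 6.47 ± 0.176, SD, n = 3) were the closest together of any bound member.

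The start sites of both genes are shown because their summits fell almost on the TSS. The sequences are from the RefSeq Release 6 assembly (dm6) on each gene's own strand, chr3R:29220102-29220201 (plus) for eEF1gamma and chr2L:21682102-21682131 (minus) for eEF2. Capitals mark an exact DRE (TATCGATA, the element bound by the factor Dref) at eEF1gamma and the letters CTTT at the eEF2 start.
eEF1gamma: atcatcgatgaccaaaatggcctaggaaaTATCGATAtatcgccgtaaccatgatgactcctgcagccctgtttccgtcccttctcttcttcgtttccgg
eEF2: gtcgctgcagcgcctcgctCTTTcctgtcg
The DRE at eEF1gamma was centred 32.5 bp from the summit, and the CTTT at eEF2 overlaps no DRE.

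Among the remaining elongation factor genes, eEF1alpha1 (FBgn0284245) had a peak on 2R from 11891927 to 11892273 with a pooled signal of 510.6 and its summit at 37 bp. Its values of 3.69, 1.62 and 4.97 times the list median (mean 3.43 ± 1.69, SD, n = 3) were uneven, with replicate 2 low. A second, weaker peak lay 82 bp upstream of another of its TSSs, at a signal of 214.6. At eEF5 (FBgn0285952), whose product helps the ribosome past stretches of proline, the signal was 554.4 at 21 bp, on 2R from 24057654 to 24057912. Here the replicates gave 5.49, 3.94 and 5.09 times the list median (mean 4.84 ± 0.807, SD, n = 3).

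The summits of the 4 bound elongation factor genes were all within 50 bp of a TSS, at most 37 bp away. Of the 12 bound initiation factor genes 3 were that close, by their strongest peak, and the median distance was 108.5 bp. Over all bound genes 18.8% lay within 50 bp and the median was 141 bp. Such closeness was not particular to elongation factor genes. Of the bound cytosolic ribosomal protein genes 61 of 80 lay within 50 bp, at a median of 25 bp. Of the bound cytosolic aminoacyl-tRNA synthetase genes 1 of 9 did, at a median of 114 bp. The 4 bound elongation factor genes each have several TSSs, and the distance is to the nearest. With 4 genes this is a description only.

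The unbound elongation factor genes were eEF1alpha2, the second eEF1alpha gene, eEF1beta and eEF1delta. Of these eEF1beta came nearest the set: a region at its TSS had a pooled signal of 164.7, below the 198.3 of the weakest reproducible peak, and stood at 1.57, 2.15 and 1.58 times the list median. In contrast eEF1alpha2 had a region at a TSS in replicate 1 alone, at 0.811 times the median, and eEF1delta in replicate 3 alone, at 0.915 times. Thus eEF1alpha1 was bound and eEF1alpha2 was not. The order of their signals follows from that rule, and for eEF1alpha2 it rests on replicate 1 alone, so it adds nothing further.

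**Figure D2:**
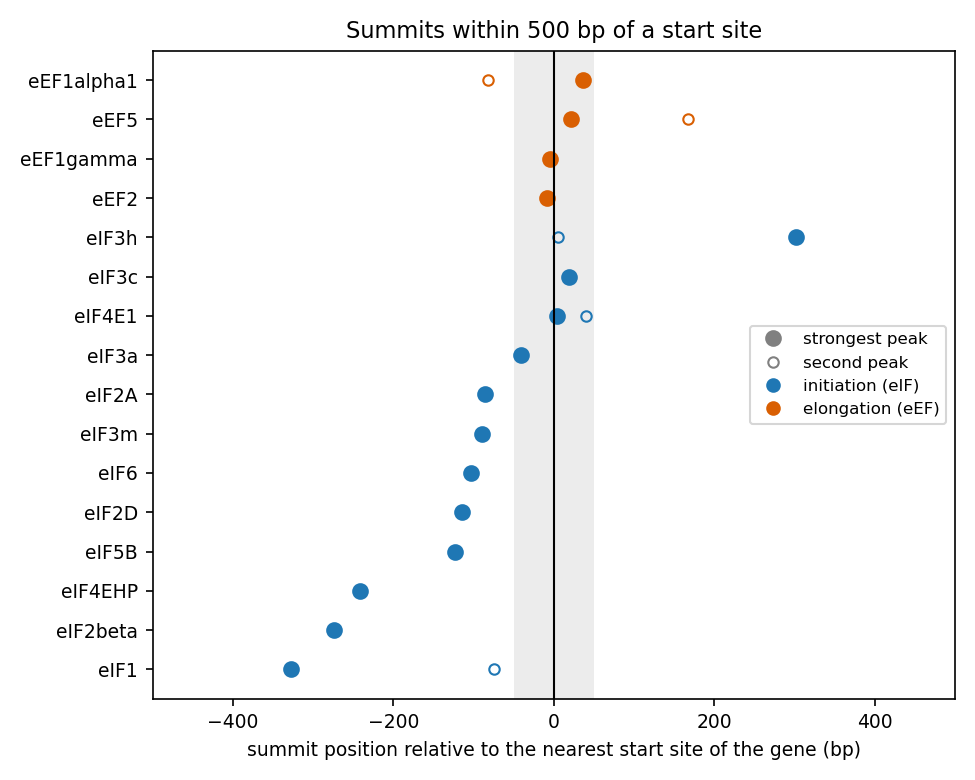
Position of each reproducible summit within 500 bp of a TSS of the 16 bound genes, in bp from the nearest TSS of that gene, with negative values upstream and a grey band from -50 to 50 bp. Filled points are the gene's strongest peak and open points a second peak; the filled points of the 4 elongation factor genes all lie in the band, and those of the initiation factor genes spread from -327 to 302 bp.

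Start codon selection and delivery of the initiator tRNA involve eIF1, eIF1A, eIF2, eIF5 and eIF5B, with eIF2A and eIF2D as further factors that can act on initiator tRNA or on recycled ribosomes. At eIF1 (FBgn0035423), whose product keeps the scanning ribosome from starting at wrong codons, 2 reproducible peaks lay within 500 bp. The stronger, on 3L from 3222831 to 3223183, had a pooled signal of 1301 and was at 9.84, 14.7 and 8.85 times the list median (mean 11.1 ± 3.11, SD, n = 3). Its summit was at -327 bp from the TSS of eIF1 but at -54 bp from that of RpL28, the gene of a large ribosomal subunit protein that runs the other way. The weaker, at 442.8, was at -74 bp from eIF1 itself and gave 1.41, 6.1 and 3.85 times the median, with replicate 1 low.

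The GTPase factor eIF2, which carries the initiator tRNA, has 3 subunits, and of their genes only eIF2beta (FBgn0004926) was bound. Its peak on 3L from 12526914 to 12527101 was among the weakest of the members, with a pooled signal of 320.3 and its summit 274 bp upstream. It stood at 0.879, 3.09 and 3.81 times the list median (mean 2.59 ± 1.53, SD, n = 3). Replicate 1 was below its list's median there, so this peak rests on replicates 2 and 3. No list held a region with its summit within 500 bp of the eIF2alpha TSS. At eIF2gamma, replicate 1 alone had one, at 2.44 times the median, and the nearest reproducible summit was at -2117 bp, with a signal of 4575.

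The guanine nucleotide exchange factor eIF2B, which reactivates eIF2, has 5 subunit genes, and none was bound. The nearest to being so were eIF2Bbeta, with a summit at -684 bp of signal 6755, on the side of its divergent neighbour Ugalt, and eIF2Bdelta, with a summit at -856 bp and signal 310.6. Both are bound when the window is 1000 bp. For eIF2Bgamma, which had regions in replicates 1 and 2 at 1.18 and 1.48 times the list median, the nearest summit was at -1282 bp, for eIF2Bepsilon at 15003 bp and for eIF2Balpha at -23659 bp. No list held a region with its summit within 500 bp of a TSS of eIF2Balpha, eIF2Bbeta or eIF2Bepsilon. By its edge, however, a reproducible peak did reach within 500 bp of the eIF2Bbeta TSS.

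At eIF2A (FBgn0037135) the peak on 3L from 21824662 to 21825097 had a pooled signal of 338.1 and gave 3.03, 3.36 and 2.05 times the list median (mean 2.81 ± 0.679, SD, n = 3). At eIF2D (FBgn0041588), on 3R from 29151814 to 29151978, the signal was 464.2, and the values of 4.22, 4.01 and 3.53 (mean 3.92 ± 0.351, SD, n = 3) lay close together. The gene eIF5B (FBgn0026259), for the GTPase that joins the ribosomal subunits, had a peak on 3L from 3460508 to 3460943 with a signal of 426.8. Its replicates stood at 4.25, 3.73 and 3.09 times the median (mean 3.69 ± 0.585, SD, n = 3). The summits were at -85 bp from a TSS of eIF2A, -114 bp from that of eIF2D and -123 bp from one of eIF5B. Counted from the most upstream TSS, the eIF2A and eIF5B summits lay 140 and 251 bp into the gene, each in an annotated exon. Every value of eIF2D lay above every value of eIF2A, and eIF5B overlapped both.

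The genes eIF1A, a partner of eIF1, and eIF5, which triggers GTP hydrolysis by eIF2, were unbound. The nearest reproducible summits were at 21643 bp from eIF1A and at -12977 bp from eIF5. A region at eIF5 reached a pooled signal of only 57.1, and one at eIF1A appeared in replicate 1 alone, at 1.86 times the median.

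The scaffold factor eIF3, which binds the small ribosomal subunit and recruits the mRNA, had 16 genes, and 4 were bound. That is near the share of 24.8% over all protein-coding genes. The gene eIF3a (FBgn0037249) had the strongest peak, on 3R from 4433832 to 4434056, with a pooled signal of 612.3 and replicate values of 4.53, 7.33 and 3.81 times the list median (mean 5.23 ± 1.86, SD, n = 3). At eIF3h (FBgn0022023) a peak of signal 606.1 lay 302 bp downstream of a TSS, and 616 bp from the most upstream one, on 2L from 5052334 to 5052584, at 5.19, 5.73 and 4.23 times the median (mean 5.05 ± 0.757, SD, n = 3). A second, weaker peak of signal 325.7 sat 5 bp from the same TSS, at 1.97, 3.55 and 2.81 times the median. The order of eIF3a and eIF3h does not hold against the replicate spread, since their values overlap.

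The other bound eIF3 genes were weaker. At eIF3c (FBgn0034258), on 2R from 17665565 to 17665766, the signal was 481.4 at 19 bp, and the replicates gave 3.42, 4.78 and 4.3 times the median (mean 4.17 ± 0.687, SD, n = 3). At eIF3m (FBgn0033902), on 2R from 14164696 to 14165131, it was 311.7 at -89 bp, with 3.11, 2.61 and 2.53 times the median (mean 2.75 ± 0.314, SD, n = 3). This was the lowest pooled signal of any bound member. The 12 unbound eIF3 genes were eIF3b, eIF3d1, eIF3d2, eIF3e, eIF3f1, eIF3f2, eIF3g1, eIF3g2, eIF3i, eIF3j, eIF3k and eIF3l, so that neither copy of the duplicated subunits d, f and g was bound. Of these eIF3j and eIF3b came nearest, with pooled signals of 184.9 and 180.5. They stood at 1.88, 0.792 and 1.83 (eIF3j) and at 1.92, 2.11 and 1.9 (eIF3b) times the list median. The other unbound eIF3 genes had between 0.654 and 1.69 where a replicate had a region, and eIF3d2 and eIF3g2 had none.

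The factor eIF6 keeps the large ribosomal subunit from joining too early and takes part in its biogenesis. Its gene (FBgn0034915) had the second strongest peak of the members, on 2R from 23850213 to 23850584, with a pooled signal of 2937 and rank 53. The replicate signals were 955.7, 1056 and 941.9, or 28.2, 27.3 and 21.5 times the list median (mean 25.7 ± 3.6, SD, n = 3). The summit was 103 bp upstream, and eIF6 was the only gene with a TSS within 500 bp of it.

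The cap-binding side of initiation is served by eIF4E, which binds the cap, eIF4G, which links it to the ribosome, the helicase eIF4A and the helper proteins eIF4B and eIF4H. Outside the eIF4E family no gene of this group was bound, in 6 cases. Among them eIF4A and eIF4G2, a second eIF4G gene known for its role in spermatogenesis, fell just short: their pooled signals were 195.9 and 196.2, ranks 6674 and 6656 of the pooled list, against 198.3 at rank 6565. At eIF4A the replicates stood at 2.59, 2.75 and 1.76 times the list median, and at eIF4G2 at 2.38, 1.82 and 1.82. Both ranges overlap that of the weakly bound eIF2A. Each of these genes had a summit among the strongest 6565 regions of replicates 1 and 2 but not of replicate 3. Replicate 2 alone had a region at eIF4G1, at 1.67 times the median, and replicate 3 alone one at eIF4H1, at 2.27 times, while eIF4B and eIF4H2 had none. The nearest reproducible summit to eIF4B was 590951 bp away.

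Side by side, 2 of the 7 eIF4E paralogues were bound, eIF4EHP and eIF4E1, beside 24.8% of all protein-coding genes. The gene of the cap-binding repressor eIF4EHP, which holds back translation of maternal mRNAs such as those of caudal and hunchback, had the highest value of all 51 members. Its peak (FBgn0053100) lay on 3R from 24108915 to 24109416, with a pooled signal of 3721 and rank 33 of 6565. The replicate signals were 1128, 1336 and 1271, at ranks 39, 26 and 35, which is 33.2, 34.5 and 29.1 times the list median (mean 32.3 ± 2.86, SD, n = 3). The summit was at -242 bp from eIF4EHP and at -134 bp from CG18428, a gene on the other strand.

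The main cap-binding gene eIF4E1 (FBgn0015218) had its strongest peak on 3L from 9402064 to 9402410, with a pooled signal of 838.9 and the summit 4 bp downstream of one TSS and 239 bp from the most upstream one. The replicate values of 8.62, 8.52 and 4.68 times the median (mean 7.27 ± 2.25, SD, n = 3) all lay below the lowest of eIF4EHP. A second summit of signal 628.8 lay 40 bp from another of its 4 TSSs, on 3L from 9402306 to 9402601. In replicate 3 both summits had the same value, 4.68, which a single region over both would give, so replicate 3 may not separate them.

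None of the other eIF4E genes was bound. At eIF4E6 a region reached a pooled signal of 103.9, near the median of the pooled list (98.3), and appeared in replicates 1 and 3 at 0.826 and 1.31 times the list median. At eIF4E3, which is needed for spermatogenesis, replicate 3 alone had a region, at 0.6 times the median. At eIF4E4 replicate 1 alone did, at 0.579 times. No list held a region with its summit within 500 bp of the TSS of eIF4E5 or eIF4E7. The nearest reproducible summits to these 5 genes were at -7228 bp (eIF4E6), -8761 bp (eIF4E7), 9073 bp (eIF4E5), -30999 bp (eIF4E3) and -40444 bp (eIF4E4). The values of these 5 lay below those of eIF4E1 and eIF4EHP, but this order is largely set by the rule for bound genes. The reproducible set was made from the same replicates, and most replicates had no region at these 5 genes.

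**Figure D3:**
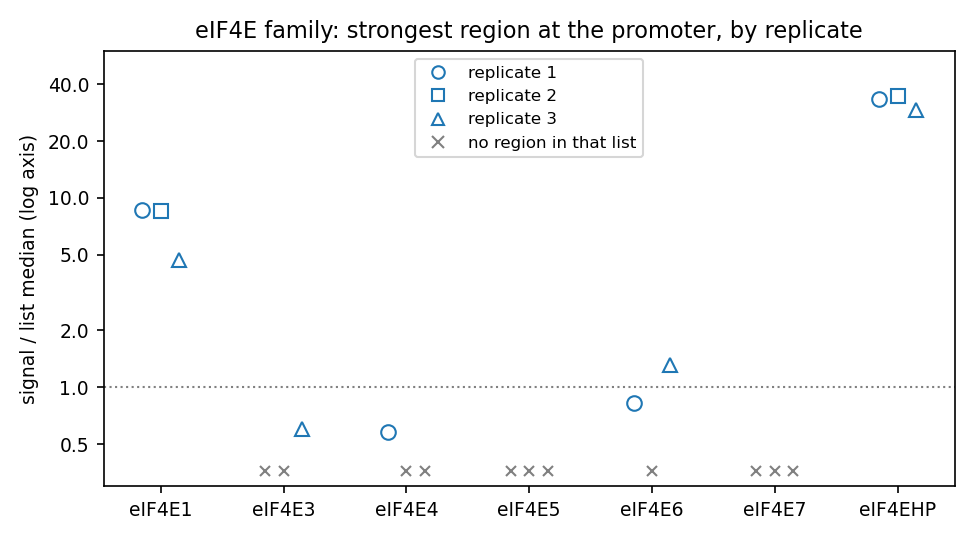
The 7 genes of the eIF4E family on the horizontal axis and, on a vertical log axis, signal divided by the list median in each of the 3 replicates. For eIF4E1 and eIF4EHP this is the region over the pooled summit and for the others the strongest region with its summit within 500 bp of the TSS; grey crosses at the bottom mark replicates whose list has no such region. Only eIF4E1 (4.68 to 8.62) and eIF4EHP (29.1 to 34.5) rise above 1.31.

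The sequence at member summits was searched, on both strands, for 6 short promoter words within 50 bp of the strongest summit. The DRE (TATCGATA) was found at 4 of the 16 member summits, at eEF1gamma, eIF1, eIF2A and eIF3a, against 1.2% of all 6565 summits and 2.49% of the 3012 within 500 bp of a TSS. Its centre was 0.5 bp from the summit at eIF2A, 6.5 bp at eIF3a and 34.5 bp at eIF1. These 3 windows are shown, centred on the summit and on the strand of the named gene, with the DRE in capitals, and with the eIF4EHP window, which holds the TATA word (TATAAA) on both strands and no DRE. Coordinates in dm6 are chr3L:21824866-21824894 (plus) for eIF2A, chr3R:4433887-4433985 (minus) for eIF3a, chr3L:3222964-3223064 (plus) for eIF1 and chr3R:24109152-24109252 (minus) for eIF4EHP. In the eIF2A window the word GGTCACAC, which overlaps no DRE, lay further out, centred 28.5 bp from the summit and outside the 29 bases shown.
eIF2A: tactatcgctTATCGATAcaccgcgtaca
eIF3a: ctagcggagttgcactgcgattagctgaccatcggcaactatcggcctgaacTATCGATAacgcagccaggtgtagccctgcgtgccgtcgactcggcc
eIF1: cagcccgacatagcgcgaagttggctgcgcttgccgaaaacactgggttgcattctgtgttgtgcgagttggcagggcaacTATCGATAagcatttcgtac
eIF4EHP: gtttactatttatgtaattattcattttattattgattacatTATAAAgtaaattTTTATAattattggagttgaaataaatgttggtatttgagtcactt
The eIF3a window spans the 70 bp between the starts of eIF3a and CG1074, and its DRE lies between them. The eIF1 window is also the promoter of RpL28. Of the other words, TATAAA was at 2 member summits (12.5%, against 21.9% of all summits), TCAGT at 2 (12.5%, against 17.2%), GAGAG at 1 (6.25%, against 9.6%) and GGTCACAC at 1 (6.25%, against 0.899%). The E-box CAGCTG was at none, against 4.4% of all summits. Member summits all lie within 500 bp of a TSS, and among the 3012 such summits the shares differ. There TATAAA was at 21.2%, TCAGT at 17.3%, GAGAG at 9.89%, GGTCACAC at 1.73% and CAGCTG at 5.51%. A match is a description of the letters and shows no binding by a factor, and no match says only that the letters are not in the window.

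Across whole promoters, taken as 250 bp before to 50 bp after each TSS, the DRE was present at 15 of the 51 genes (29.4%) and at 10.2% of all genes. Of all bound genes 15.6% had it. Among the members 5 of the 16 bound and 10 of the 35 unbound genes did, the latter including eIF2alpha, eIF2gamma, eIF1A and eIF4A. The core of promoter motif 1 (GGTCACAC), the word bound by M1BP, was at 9 members (17.6%) and 8.71% of all genes, and the E-box CAGCTG at 5 members (9.8%) and 22.3% of all genes. The words TATAAA (24 members, 47.1%), TCAGT (23, 45.1%) and GAGAG (15, 29.4%) were at 51.2%, 58.5% and 36.3% of all genes. The letters CTTT, the core of the polypyrimidine initiator known from ribosomal protein genes, started within 5 bp of a TSS on the gene's own strand at 7 members (13.7%) and 8.07% of all genes. Of all bound genes 11.3% had these letters, and of the 16 bound members 4 did. The letters were at 3 of the 7 elongation factor genes, eEF1alpha1, eEF2 and eEF5, all bound. They were also at 4 of the 44 initiation factor genes, of which eIF3m was bound and eIF3f1, eIF3i and eIF4A were not. Whether CTTT and binding go together was not tested. Genes with several TSSs have several windows, in the members as in the background.

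Promoters shared with a neighbour bear on whose peak is counted. For 13 of the 16 bound genes the nearest TSS to the strongest summit was the gene's own. The exceptions were eIF1, where it was that of RpL28, eIF3a, where it was that of CG1074 at 29 bp against 41 bp, and eIF4EHP, where it was that of CG18428. At eIF3h and eIF3m an opposite-strand gene also had a TSS within 500 bp of the strongest summit. These were senju, at -365 bp against 302 bp for eIF3h, and CG8323, at -137 bp against -89 bp for eIF3m. When a peak counted for its closest TSS alone, eIF3a and eIF4EHP were no longer bound, and eIF1 kept its weaker peak. A TSS on the opposite strand within 1000 bp upstream was present at 25 of the 51 genes (49.0%) and 36.2% of all genes. Among members with such a neighbour 9 of 25 were bound (36%, against 40.6% of all such genes), and among the rest 7 of 26 (26.9%, against 15.8%).

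Other gene features were set beside the background in the same way. Of the 20 members with several TSSs 10 were bound, against 42.3% of all such genes, and of the 31 with 1 TSS 6, against 18.5%. By arm the bound members were 2 of 5 on 2L, 5 of 12 on 2R, 5 of 11 on 3L and 4 of 15 on 3R, where 24.3%, 24.9%, 25.8% and 26% of all genes were bound. None of the 7 members on X was bound, against 22.6% of all genes there, nor was eIF4G1, the 1 member on chromosome 4, where 11.2% were.

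Members outside the reproducible set were looked up in the authors' pooled list of 30000 regions, background included. Some region of that list had its summit within 500 bp of a TSS at 25 members (49.0%), against 47.5% of all genes. Of the 35 unbound members 9 had one, with pooled signals from 57.1 to 196.2 and a median of 164.7. These were eEF1beta, eIF2Bdelta, eIF3b, eIF3i, eIF3j, eIF4A, eIF4E6, eIF4G2 and eIF5. Further, 10 of the 35 had no summit within 500 bp of a TSS in any list, the pooled one and those of the 3 replicates. These were eIF2alpha, eIF2Balpha, eIF2Bbeta, eIF2Bepsilon, eIF3d2, eIF3g2, eIF4B, eIF4E5, eIF4E7 and eIF4H2. For unbound genes, a region at a gene means throughout one with its summit within that distance, and edges of regions were not counted. The median distance from an unbound member to the nearest reproducible summit was 9010 bp, and 8389 bp over all unbound genes.

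**Figure D4:**
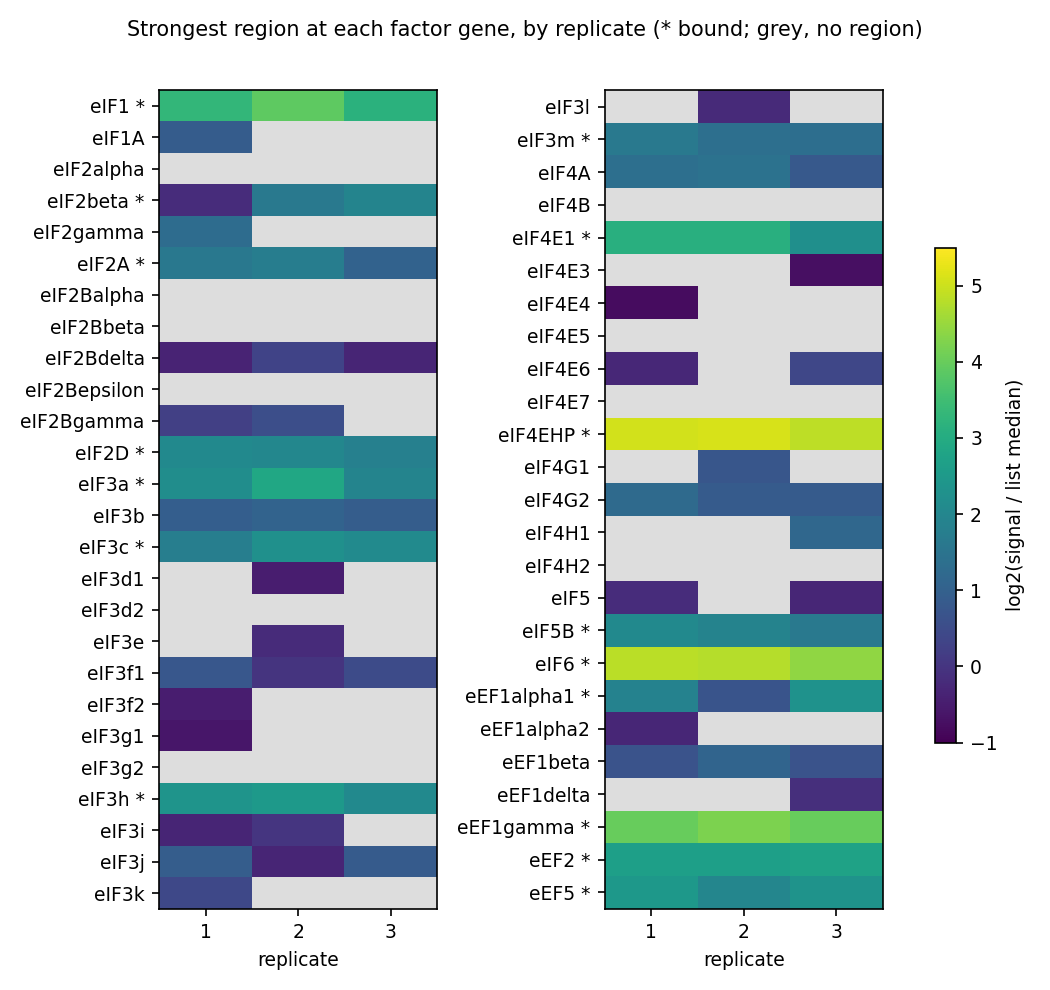
The log2 of signal over list median for all 51 genes (rows, ordered by factor) in the 3 replicates (columns), from the region over the pooled summit for bound genes, marked *, and from the strongest region with its summit within 500 bp of a TSS for the others. Grey cells have no such region. The bound genes are filled in every replicate and most of the unbound ones are grey in at least 1.

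Taken singly, the strongest 6565 regions of replicates 1, 2 and 3 had a summit at 20, 20 and 17 of the 51 genes. Of all 13945 genes they had one at 3459, 3674 and 3359 (24.8%, 26.3% and 24.1%). Found in all 3 replicates were 15 of the 51 genes, against 2578 of the 13945 (18.5%). These 15 were bound by the reproducible set, which was itself made from the same replicates. Another 4 were found in 2 replicates, namely eIF2beta, which is bound, and eIF3b, eIF4A and eIF4G2, which are not. In 1 replicate only were eEF1beta, eIF2gamma, eIF3j and eIF4H1, and the remaining 28 genes were in none. Just inside the 500 bp rule, the bound member farthest from its nearest summit was eIF2beta at -274 bp, and just outside it were eIF2Bbeta at -684 bp and eIF2Bdelta at -856 bp.

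Genes of translation outside the symbol rule give the context. Of a list of 20 regulators and partners 19 symbols matched a single gene, and 8 of the 19 were bound. These were larp (signal 3076), whose product binds mRNAs of ribosomal proteins, the eIF4E kinase gene Lk6 (513.8), and Thor (462.1), which encodes the eIF4E-binding repressor 4E-BP. The others were eRF3 (387.1) and eRF1 (262), the termination factors, pAbp (347.8), the poly(A)-binding protein, the ribosome recycling factor gene pix (320.2) and NAT1 (223.4), an eIF4G relative. The unbound included cup, mxt, Paip2, S6k, DENR, MCTS1, raptor, Pdcd4, eEFSec and the eIF2 kinase genes Gcn2 and PEK. Cytosolic ribosomal protein genes, by symbol, were bound in 80 of 92 cases and cytosolic aminoacyl-tRNA synthetase genes in 9 of 20. Set beside these, the 16 of 51 factor genes (31.4%) were the smallest share, a difference that was not tested.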

How the data were processed

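The authors deposited, on dm6 and dm3, a list of regions for each replicate, 1 for the pooled replicates and a reproducible set derived from them by IDR, with a control input, per the labels and the submitters' notes with the files. Aligner, peak caller and IDR threshold: not given in the sources used here. Signal, as deposited, is the authors' value per region; its scale differs between lists, so it serves to rank peaks within a list. The deposited −log10 q-value was not used. The summit offset is in bp.

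The 5 dm6 lists were joined to Ensembl release 115 gene models, and the RefSeq Release 6 genome, past whose arm ends 0 peaks reached, in Python 3.11.15 with numpy 2.4.6 and pandas 2.3.3, and plotted with matplotlib 3.10.9. Genes with a summit at most 500 bp from a protein-coding TSS were termed bound. The strongest such peak gave a gene's values. In replicates the strongest region spanning the pooled summit was used, or for unbound genes the strongest with its summit in that window, divided by the list median. With 1 group and no second condition no test was made, and counts stand beside those of all 13945 genes. Alternatives were other windows (250 and 1000 bp), thresholds, TSS rules and replicates; for a left-out replicate only peaks with 50% of their length covered among the strongest 6565 regions of both others were kept. Printed windows reach 50 bp to either side of a summit, or from 70 bp before to 30 bp after a TSS, shortened to hold at most 30 exonic bases or to about that length. Promoters were cut from the genome, since no promoter table was used here. Every member is named with its values or in its factor's account. Members and lists were chosen with earlier results of these data known. The code was tested on simulated data.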

Additional observations from a re-analysis of the deposited data

How the results depend on the processing

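The count of 16 bound members stayed between 13 and 20 under every alternative but 1, in which all 30000 regions of the pooled list replace the reproducible set: 25 members, 20 of them initiation factor genes, then have a summit within 500 bp, as do 47.5% of all genes. The background share of 24.8% was 20% with a window of 250 bp (15 members, without eIF2beta), 28.6% with 1000 bp (18, with eIF2Bbeta and eIF2Bdelta), and 15.2% with the stronger 3282 peaks (13, without eIF2A, eIF2beta and eIF3m). It was 22.2% with the most upstream TSS alone (16), 26.5% with the peak interval in place of its summit (17, with eIF2Bbeta) and 26.3% in replicate 2 alone (20). With the nearest TSS only it was 19.3% (14 members), and eIF4E1 was then the 1 bound gene of its family. With a replicate left out it fell to between 18.1% and 18.7%, and from 14 to 15 members remained: eEF5 was lost without replicate 1 or replicate 2, and eIF2beta without replicate 2 or replicate 3. The eEF5 region ranked 1406, 2232 and 1525 in the replicates, so the loss came from the overlap rule and not from its rank. The signal over the list median was lower in the replicate than in the pooled list in 44 of 48 comparisons. Depth is unknown, so a gene without a region may have binding below what these lists can hold. No paired analysis was possible because there is 1 group.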

Other observations

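Apart from their promoters, 2 long factor genes held reproducible summits along their length. The gene eIF4EHP spans 45884 bp and had 7 summits inside it, none within 500 bp of its own TSS. The strongest, at a signal of 521.7, was 2539 bp into the gene and 658 bp from the TSS of Syx1A, which encodes the synaptic membrane protein syntaxin. Another, of 365.6, was 73 bp from that TSS. The others ran from 222.3 to 461.8 and lay 6367 to 35023 bp into the gene, and 1 of these summits was in an annotated exon. The gene eIF5B spans 32320 bp and had, beside the promoter peak of 426.8, summits of 990.3, 337.4, 296.9 and 227. The strongest of these exceeded the eIF5B promoter peak and lay 28127 bp from the most upstream TSS of eIF5B; its nearest TSS, 7915 bp away, was that of sty, which encodes an inhibitor of receptor tyrosine kinase signalling. In the other members no summit lay over 1024 bp into the gene.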
